A study of Homo sapiens with 9 samples.

Results

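The USP genes encode the ubiquitin-specific proteases, and they were followed here across exon arrays of Flip-In-293 cells. Members were the genes whose symbol in the platform annotation is USP followed by a number, with or without an X, and whose probe sets carry that symbol alone; 1 further symbol of this form is not analysed here. This gave 47 genes with 1499 probe sets, out of 19426 genes and 354600 probe sets with 1 gene. Flip-In-293 was derived from HEK293, an established human embryonic kidney line. The cells of all 9 arrays had been infected with a lentivirus that carried a hairpin RNA and were then cultured for 10 days. The hairpin was directed against CPSF3, the enzyme that cleaves pre-mRNA at its poly(A) site (3 arrays), or against RBFOX2, an RNA-binding regulator of alternative exons (3 arrays), or was non-silencing (control, 3 arrays). The replicates are biological by their titles and technical by the series description. A p-value here therefore reflects only how these arrays vary, and that variation may be technical.

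Ubiquitin is a small protein that is attached to other proteins by a cascade of E1, E2 and E3 enzymes, often as a chain that sends them to the proteasome. Ubiquitin-specific proteases are the largest family of deubiquitinases in human cells: most are cysteine proteases that cut ubiquitin off again and so save, relocate or switch their substrates. Members act on histones, at stalled replication forks, on endosomes, at the proteasome, on mitochondria and in the spliceosome, and HEK293 cells have been a common setting for their biochemistry.

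The array reads most exons of a gene through separate probe sets, and each value is a log2 signal. Of the 1499 USP probe sets, 1263 were kept because their mean over the 9 arrays reached 6.97, the median over the whole array. A dim probe set can reach this mean through 1 group alone, which limits what counts among kept probe sets show. Probe sets of 1 gene share the same arrays and are not replicates of a group. A gene level is the median of the kept probe sets of a gene on an array, and 44 of the 47 genes had the 3 kept probe sets this needs. USP26, USP29 and USP41 had 1 kept probe set of 5 each and have no gene level. USP50 and USP51 rested on 4 and 5 kept probe sets, and USP34 on 88. Only 36 of the 57 USP6 probe sets were kept, and this gene has a close relative in the genome, so its signal is uncertain. The probe sets annotated to USP8, USP12, USP40 and USP6 do not form 1 run of neighbouring probe set numbers: 5 of 27, 11 of 25, 1 of 31 and 1 of 36 kept ones lie outside the largest run (a gap over 2000 in number starts a new run). Whether these read the same gene was not tested. Probe sets differ in how strongly they bind, so the mean control levels, from 7.19 ± 0.03 for USP50 to 10.93 ± 0.19 for USP9X (SD, n = 3), do not rank the genes. Between replicates of a USP gene the median SD was 0.15 (arrays labelled CPSF3 knockdown), 0.12 (RBFOX2 knockdown) and 0.15 (control).

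The targeted genes check the labels. CPSF3 was at 9.60, 9.27 and 9.27 on the arrays labelled CPSF3 knockdown, against 9.33, 9.29 and 9.80 on the control arrays, and the groups overlapped. Its change of -0.09 ± 0.16 (SE) did not pass the limma test (adjusted p = 0.752), so these are called arrays labelled CPSF3 knockdown throughout. RBFOX2 was at 8.95, 8.82 and 9.05 on the RBFOX2 knockdown arrays, against 9.66, 9.54 and 9.38 on the control arrays. Its difference of -0.58 ± 0.12 did not pass (adjusted p = 0.0617, limma), and it passed without control replicate 3 (-0.66, adjusted p = 0.00424). The array medians differed by at most 0.03, and control replicate 3 correlated less with the other controls (mean r = 0.948) than with the arrays of the other groups (0.958). All 7 measured genes known to be expressed in HEK293 cells, among them VIM and NEFM, had levels above 6.97 in each group. The blood marker PTPRC was at 4.54 in the arrays labelled CPSF3 knockdown, 4.56 in the RBFOX2 knockdown and 4.70 in control, and of 4 measured blood markers 2, 2 and 1 were above 6.97. So were 4, 3 and 3 of 6 fibroblast markers, and in each group 2 of 5 endothelial and 3 of 4 epithelial markers. A level above 6.97 therefore does not tell kinds of cell apart. In bulk RNA, fewer cells of a kind and less RNA per cell cannot be told apart.

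The first comparison asks what changed in the arrays labelled CPSF3 knockdown. USP37, USP16, USP34, USP8 and USP42 rose against control, by 1.39-fold to 1.83-fold, and no USP gene fell. These are 5 of 44 genes (11.4%), against 14.4% of all 16748 genes called in this comparison; for rises alone, the share was 11.4% of USP genes against 10% of all genes. The share of called members was therefore close to the background. Counting the called genes too, 35 of the 44 genes had a higher mean (51.6% of all genes did), 16 had an unadjusted p under 0.05 (28.2%), and the median change was 0.23 on the log2 scale, against 0.01 over all genes. No overlap between the 2 groups was seen for 20 USP genes, 18 higher and 2 lower (31.1% of all genes, 17.9% for higher ones). Calls are from limma, Benjamini-Hochberg adjusted over all genes, with a threshold of 0.05.

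Single arrays set how many genes passed. The count was 2 without CPSF3 replicate 1, without control replicate 1 or without control replicate 2, 3 without CPSF3 replicate 2, and 11 without control replicate 3. The median USP level was 9.50, 9.21 and 9.18 on the arrays labelled CPSF3 knockdown, against 9.10, 8.94 and 9.03 on the control arrays. CPSF3 replicate 1 thus stood above its 2 companions, and it held the highest of the 3 values for 28 of 44 USP genes. Without it the median change was 0.17. The median level over all genes on these arrays was 8.84, 8.78 and 8.74, against 8.73, 8.67 and 8.80 on the control arrays. The USP median minus this median was 0.66, 0.43 and 0.44, against 0.37, 0.27 and 0.23 in control. CPSF3 replicate 1 was thus still highest, and these differences were not tested.

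**Figure D1:**
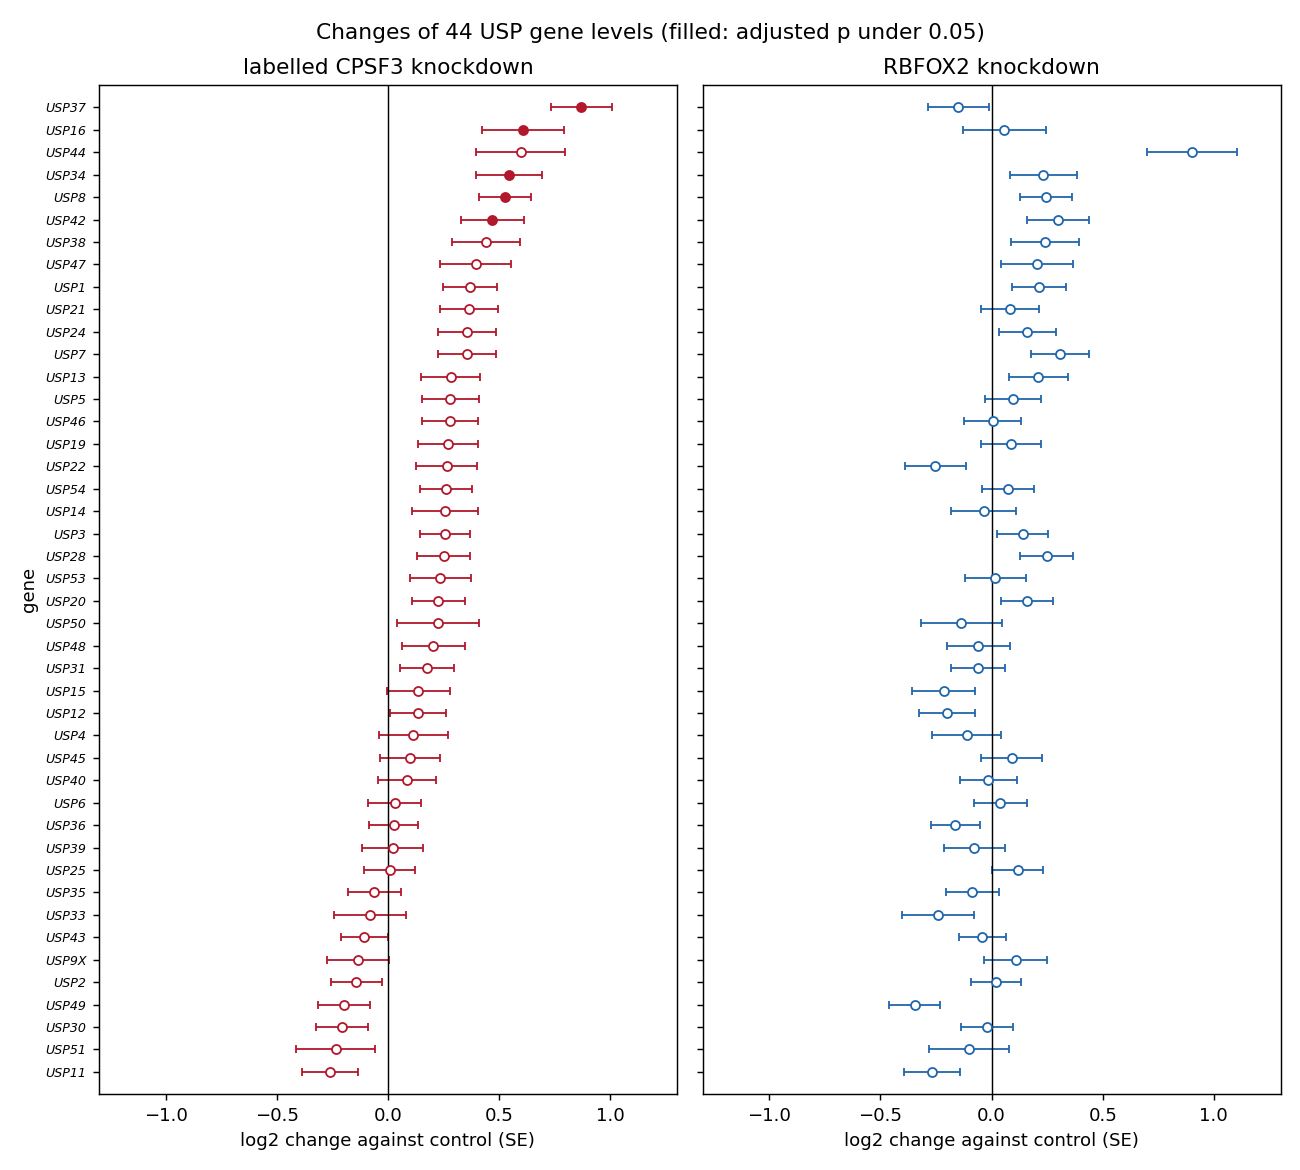
Log2 change of each of 44 USP gene levels (rows) in the arrays labelled CPSF3 knockdown (left) and in the RBFOX2 knockdown (right) against the same control arrays, with SE bars from the limma fit; filled points passed at an adjusted p under 0.05. On the left 35 of 44 points lie above 0 and 5 are filled, and on the right 25 lie above 0 and none is filled.

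USP37, which opposes the anaphase-promoting complex and removes ubiquitin from cyclin A, had the largest change. It was at 9.58, 9.24 and 9.37 on the arrays labelled CPSF3 knockdown. The RBFOX2 knockdown had 8.18, 8.34 and 8.62, and control had 8.67, 8.41 and 8.51. All 3 arrays labelled CPSF3 knockdown lay above the other 6, and the RBFOX2 knockdown and control arrays overlapped. The rise against control was 0.87 ± 0.14 (1.83-fold, 95% interval 0.58 to 1.17, adjusted p = 0.0025, limma). All 23 kept probe sets of USP37, of 31 in all, had a higher mean than in control, by 0.03 to 1.29. This count depends on the filter: ps2599477, with a mean of 7.21 over the 9 arrays, was kept only through the arrays labelled CPSF3 knockdown. It differed from control by 1.20. With no filter on dim probe sets the rise of the USP37 gene level was 0.74 and just missed the threshold (adjusted p = 0.0545, limma). It passed under the other 17 settings tried.

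Among the enzymes of endosomes and signalling, 2 of 9 rose, with 10% of all genes called higher. USP8, which removes ubiquitin from receptors on endosomes, was at 9.44, 9.39 and 9.34 on the arrays labelled CPSF3 knockdown, against 8.87, 8.76 and 8.95 on the control arrays. These values did not overlap, and the rise was 0.53 ± 0.12 (adjusted p = 0.00995, limma). This call rests on which probe sets are taken as USP8. The 5 that lie outside the largest run differed by 0.56 to 0.81, and without them, a setting chosen after seeing the data, the difference was 0.34 and did not pass (adjusted p = 0.0741, limma). It was 0.27 with no filter on dim probe sets and did not pass there either (adjusted p = 0.18). It passed under the other 16 settings. USP34, a very large enzyme that acts on axin in Wnt signalling, was at 10.26, 9.90 and 9.88, against 9.49, 9.23 and 9.69 in control. Its rise was 0.55 ± 0.15 (adjusted p = 0.027, limma), and 86 of 88 kept probe sets, of 104 in all, had a higher mean. It lost its call with no filter and without CPSF3 replicate 1, control replicate 1 or control replicate 2 (0.42 to 0.55). USP9X, an X-linked enzyme known to stabilise MCL1, differed by -0.13 ± 0.14 (95% interval -0.44 to 0.17).

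USP16 was the called member among 7 measured enzymes of chromatin and transcription, with 14.4% of all genes called (10% for rises). This count is near that share and is no result about these enzymes as a group. USP16 removes ubiquitin from a core histone in nucleosomes before mitosis. It was at 9.79, 10.02 and 10.21 on the arrays labelled CPSF3 knockdown, against 9.16, 9.57 and 9.47 on the control arrays. Of its 25 probe sets 22 had a higher mean, while ps3917175 differed by -0.89. The gene levels of the groups did not overlap, and the rise was 0.61 ± 0.19 (1.52-fold, adjusted p = 0.0428, limma). USP16 lost its call in 6 of 18 other settings: without any 1 array labelled CPSF3 knockdown, and without RBFOX2 replicate 2, control replicate 1 or control replicate 2. USP22, the ubiquitin protease of the SAGA coactivator, was higher in each array labelled CPSF3 knockdown (10.82, 10.61 and 10.58) than in control (10.48, 10.26 and 10.47), but its difference of 0.26 ± 0.14 did not pass (adjusted p = 0.232). USP49, a histone deubiquitinase linked to co-transcriptional splicing, differed by -0.20 ± 0.12 (adjusted p = 0.293).

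USP42, an enzyme linked to p53 and to transcription, was the fifth call. It was at 9.61, 9.24 and 9.30 on the arrays labelled CPSF3 knockdown, against 9.00, 8.74 and 9.00 on the control arrays, with no overlap. The rise of 0.47 ± 0.14 (adjusted p = 0.039, limma) was no longer called under 7 of 18 alternatives, at 0.36 without CPSF3 replicate 1 and 0.38 without control replicate 2. Its kept probe sets, 31 of 33, were uneven, from -0.25 to 1.56, with 28 of 31 higher. The largest difference was in ps2988971, whose mean over the 9 arrays was 7.11. This probe set was kept through the arrays of the targeting hairpins, since its control mean was below 6.97. With no filter the USP42 call was lost.

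**Figure D2:**
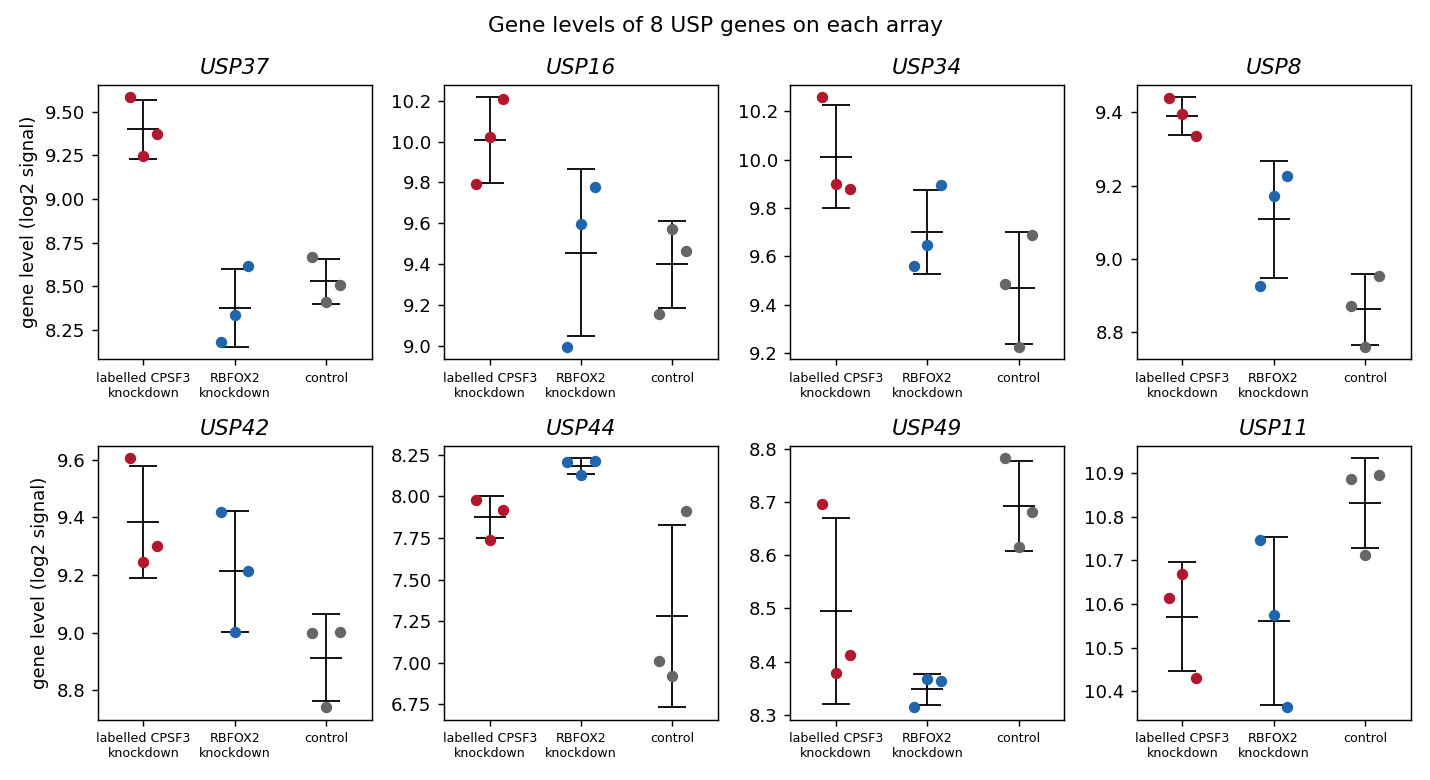
Gene level (log2 signal, vertical axis) of 8 USP genes on each array, by group; points are arrays, and the black marks are mean ± SD (n = 3). USP37 on the arrays labelled CPSF3 knockdown, at 9.24 to 9.58, lies above all other arrays, and control replicate 3 of USP44, at 7.91, lies apart from the 2 other controls. USP11 was added to this plot after its values were seen.

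Promoter sequences are shown for the called genes that matched the RefSeq promoter table (USP16, USP34 and USP8), because these are called members with a sequence to print. Each runs 5′ to 3′ on the strand of the gene, from 250 bases before its start to 50 bases after it. They lie in GRCh38.p14 at chr21:29024418-29024717 (plus strand), chr2:61471038-61471337 (minus strand) and chr15:50424155-50424454 (plus strand), for USP16, USP34 and USP8. Capitals mark matches, on either strand, to 1 of 7 motifs chosen with these sequences in view. The motifs were the GC box GGGCGG, the CCAAT box CCAAT, the ETS site CCGGAAG, the cAMP response element TGACGTCA, the E-box CACGTG, the TATA box TATAAA and the YY1 core ATGGCGG, and no matches overlapped.
USP16: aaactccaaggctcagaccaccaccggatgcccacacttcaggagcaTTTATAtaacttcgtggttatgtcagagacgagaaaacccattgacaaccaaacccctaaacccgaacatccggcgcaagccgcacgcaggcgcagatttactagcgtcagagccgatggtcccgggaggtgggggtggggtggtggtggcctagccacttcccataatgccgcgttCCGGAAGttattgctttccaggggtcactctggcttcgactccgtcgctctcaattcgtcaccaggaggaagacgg
USP34: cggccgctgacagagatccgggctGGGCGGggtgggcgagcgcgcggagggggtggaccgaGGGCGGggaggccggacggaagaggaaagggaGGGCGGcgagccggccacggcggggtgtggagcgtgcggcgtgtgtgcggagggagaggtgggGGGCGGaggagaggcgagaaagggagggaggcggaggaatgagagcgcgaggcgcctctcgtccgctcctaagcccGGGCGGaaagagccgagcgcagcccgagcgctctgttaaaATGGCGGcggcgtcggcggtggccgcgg
USP8: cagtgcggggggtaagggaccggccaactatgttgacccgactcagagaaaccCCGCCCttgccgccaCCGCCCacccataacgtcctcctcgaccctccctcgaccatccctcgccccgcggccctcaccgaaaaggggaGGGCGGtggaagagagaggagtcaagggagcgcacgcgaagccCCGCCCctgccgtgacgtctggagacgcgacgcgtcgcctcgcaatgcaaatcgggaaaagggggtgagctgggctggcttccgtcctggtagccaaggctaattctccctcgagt

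USP34 had 5 GC boxes and USP8 had 4, while USP16 had none and held an ETS site and a TATA box match. That TATA box match was on the opposite strand and lay nearer the upstream end of the stretch than the gene start. A GC box was in 28 of the 36 matched USP promoters (77.8%), against 45% of all 35116 promoters of this length, and an ETS site in 9 (25%), against 10.3%. The YY1 core, found in USP34, was in 8 of 36 (22.2%), against 5.55% of all. The TATA box was in 5.56% of USP promoters and 11.5% of all, the CCAAT box in 27.8% and 34.6%, the E-box in 5.56% and 7.26%, and the cAMP response element in 0% and 1.85%. Median G and C content was 69.7% in USP promoters and 58.7% in all promoters, and 56.3%, 74.7% and 66.0% in USP16, USP34 and USP8. Each USP gene entered these shares with a single promoter, while the share over all promoters took every entry of the promoter table. The 2 sets are therefore unlike. These matches describe letters in the reference only, and the arrays do not measure promoters.

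Other members with known roles did not pass, and their intervals show what sizes the data allow. Among enzymes of DNA repair and p53 control, USP1, which acts with WDR48 on FANCD2 and PCNA, was at 9.15, 9.20 and 9.43 on the arrays labelled CPSF3 knockdown, against 8.92, 8.90 and 8.86 in control. The groups did not overlap, and the difference of 0.37 ± 0.12 missed the threshold (adjusted p = 0.0593, limma). USP7, which deubiquitinates MDM2 and p53, differed by 0.35 ± 0.13 (adjusted p = 0.0869), with 35 of 39 probe sets higher. All 4 measured members listed under this role had a higher mean (51.6% of all genes did), with a median of 0.36. The list is short: USP24, USP38 and USP42 are not on it, and USP11, which had a lower mean, was listed under endosomes and signalling. The count is therefore no result about this role. USP14, which trims chains on substrates bound to the proteasome, differed by 0.26 ± 0.15 (95% interval -0.06 to 0.57). All 5 enzymes of the proteasome and endoplasmic reticulum had a higher mean, from 0.01 to 0.28 (51.6% of all genes had one). None was called, with 14.4% of all genes called.

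USP30, the deubiquitinase of the mitochondrial outer membrane that opposes parkin, was at 10.02, 9.86 and 10.07 on the arrays labelled CPSF3 knockdown, against 10.14, 10.15 and 10.28 in control. The groups did not overlap, yet the difference of -0.20 ± 0.12 did not pass (adjusted p = 0.28). USP39, a catalytically inactive member that belongs to the spliceosome, differed by 0.02 ± 0.14 (95% interval -0.27 to 0.32). USP11 was singled out after its values were seen. The mean was lower for 37 of its 39 kept probe sets, which share the same arrays, and its gene level differed by -0.26 ± 0.13 (adjusted p = 0.195, limma). The RBFOX2 knockdown gave much the same against these controls: 37 of 39 lower, and a gene level difference of -0.27 ± 0.13 (adjusted p = 0.367, limma).

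**Figure D3:**
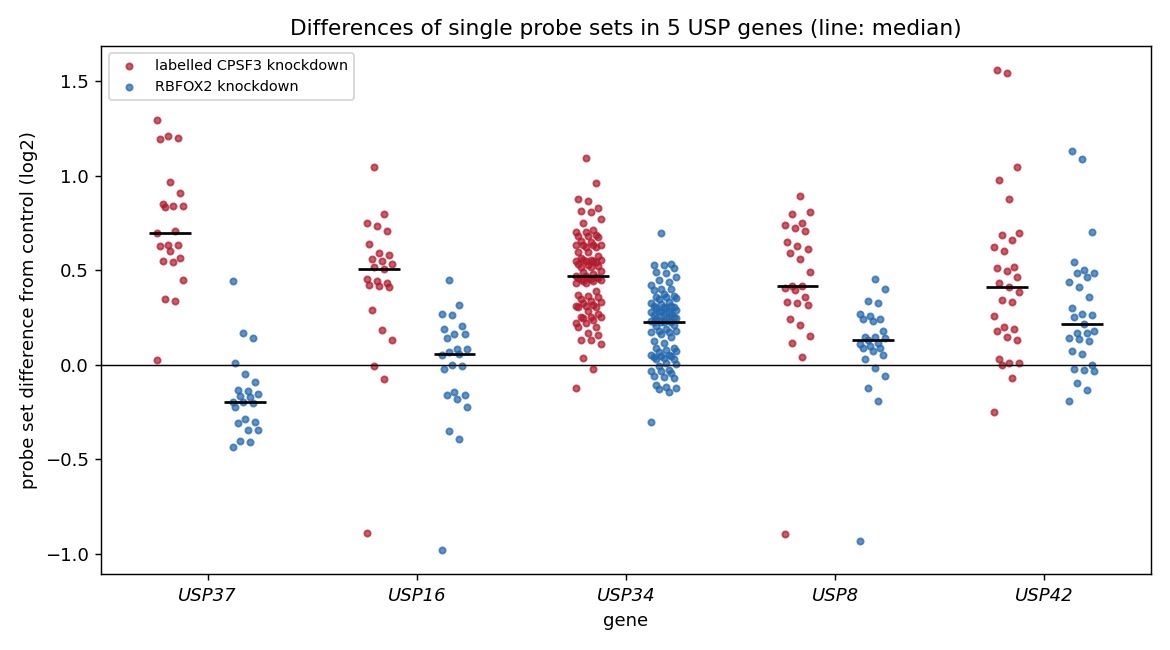
Difference of each kept probe set from control (log2, vertical axis) in the 5 called genes (horizontal axis); each point is 1 probe set, red for the arrays labelled CPSF3 knockdown and blue for the RBFOX2 knockdown, and black lines are medians. All 23 kept USP37 probe sets, of 31 in all, lie above 0 in red. In USP8 and in USP16 a single probe set lies far below the others of its gene in both colours.

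The second comparison asks what changed with the RBFOX2 knockdown. No USP gene passed (smallest adjusted p = 0.098, limma), against 0.173% of all genes called (0.0299% for rises), and 3 of 44 had an unadjusted p under 0.05 (13.6% of all genes did). Means were higher for 25 and lower for 19 genes (56% of all genes had a higher mean), with a median change of 0.03 on the log2 scale, the same as over all genes. The groups did not overlap for 5 USP genes (14.1% of all genes, 7.07% for higher ones), namely USP1, USP7, USP28 and USP44, which were higher, and USP49, which was lower. This comparison shares its control arrays with the first.

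USP44 and USP49, both histone deubiquitinases, were nearest to the threshold. USP44 was at 8.21, 8.13 and 8.22 on the RBFOX2 knockdown arrays, against 7.01, 6.92 and 7.91 on the control arrays, of which 2 lie near the filter value of 6.97. All knockdown arrays were higher, but control replicate 3 stood apart from the other 2 controls. The difference was 0.90 ± 0.20 (adjusted p = 0.098, limma), and it was 1.22 and passed without control replicate 3 (adjusted p = 0.000131). On the arrays labelled CPSF3 knockdown, USP44 was at 7.98, 7.74 and 7.92, which overlapped with control. USP49 was at 8.31, 8.37 and 8.36 on the RBFOX2 knockdown arrays, against 8.78, 8.62 and 8.68 in control. The mean was lower for each of the 24 kept probe sets, and the gene level differed by -0.35 ± 0.12 (adjusted p = 0.213, limma).

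The named enzymes with known roles did not pass in the RBFOX2 knockdown. USP7 differed by 0.31 ± 0.13 (adjusted p = 0.307), USP8 by 0.25 ± 0.12 (adjusted p = 0.373) and USP1 by 0.21 ± 0.12 (adjusted p = 0.488). USP22 differed by -0.25 ± 0.14, and USP39, the member that belongs to the spliceosome, by -0.08 ± 0.14 (95% interval -0.37 to 0.22). Within its largest run of probe sets, USP8 differed by 0.0089 on the log2 scale. For USP9X, USP14 and USP30 the differences were 0.11 ± 0.14, -0.04 ± 0.15 and -0.02 ± 0.12. Of the 5 genes called in the first comparison, USP16 and USP37 differed here by 0.06 ± 0.19 and -0.15 ± 0.14, and USP34 and USP42 by 0.23 ± 0.15 and 0.30 ± 0.14.

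Set directly against each other, the 2 targeting hairpin groups differed in USP37 alone among USP genes, with 0.4% of all genes called (0.137% for those higher on the arrays labelled CPSF3 knockdown). The arrays did not overlap for 11 USP genes, 10 higher and 1 lower (20.4% of all genes, 10.9% for higher ones). USP37 was 1.02 ± 0.14 higher on the arrays labelled CPSF3 knockdown than on the RBFOX2 knockdown arrays (2.03-fold, 95% interval 0.73 to 1.32, adjusted p = 0.00441, limma). All 23 kept probe sets, of 31, were higher, among them ps2599477, which was kept only through the arrays labelled CPSF3 knockdown. The USP37 call held when each array was left out in turn and was lost with no filter on dim probe sets (0.91, adjusted p = 0.188). Means were higher on the arrays labelled CPSF3 knockdown for 36 of 44 USP genes (50.1% of all genes), with a median difference of 0.18 against 0.00 over all genes. That median was 0.06 without CPSF3 replicate 1. In the same comparison the CPSF3 gene differed by -0.34 ± 0.16 (adjusted p = 0.373) and RBFOX2 by 0.39 ± 0.12 (adjusted p = 0.184), neither past the threshold. USP22 came next by size of its p: it was at 10.82, 10.61 and 10.58 on the arrays labelled CPSF3 knockdown, against 10.29, 9.86 and 10.30 on the RBFOX2 knockdown arrays, without overlap (0.52 ± 0.14, adjusted p = 0.137). USP22 was singled out here after its values were seen.

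Single probe sets were then taken relative to their gene level on the same array, which shows whether parts of a transcript moved apart from the rest. This was possible for 1256 probe sets in 43 USP genes. None passed in any of the 3 comparisons by limma over 257548 probe sets, where the share called was 0%. At an unadjusted p under 0.05 there were 176 USP probe sets (14.0%) in the first comparison, 98 (7.80%) for the RBFOX2 knockdown against control, and 33 (2.63%) between the targeting hairpin groups. The shares over all probe sets were 12.7%, 7.88% and 4.24%, so the USP shares were near or below the background. Shifts over 1 in size were seen in 10, 5 and 0 USP probe sets, against 0.648%, 0.274% and 0.0377% of all probe sets. Arrays did not overlap for 242, 137 and 98 USP probe sets, against 18.6%, 10.9% and 9.18% of all. Positions of probe sets within their genes were not used here.

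One USP8 probe set, ps3593692, had the smallest p of the USP probe sets in both comparisons with control, and its values are given as a description. Its own log2 signal was 6.64, 6.78 and 6.74 on the arrays labelled CPSF3 knockdown. The RBFOX2 knockdown had 6.70, 6.67 and 6.69, and control had 7.91, 7.46 and 7.48. It was therefore kept only through the control arrays, since the other 6 arrays were below the filter value of 6.97. Its own signal differed from control by -0.89 on the arrays labelled CPSF3 knockdown, while the level of USP8 differed by 0.53, so the relative shift of -1.42 holds both. That shift was -1.23 within the largest run of USP8 probe sets.

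The next probe sets by p were in USP24 and USP38, enzymes linked to DNA damage signalling, and their relative signal had a higher mean. In USP24, ps2413984 was at -1.08, -1.03 and -0.93 on the arrays labelled CPSF3 knockdown, against -1.67, -1.87 and -2.08 on the control arrays. This shift of 0.86 ± 0.14 did not pass (adjusted p = 0.0762, limma) and passed without control replicate 3 (0.76, adjusted p = 0.0415). In USP38, ps2745521 was at 0.65, 0.62 and 0.63, against -0.13, -0.50 and -0.04 in control, with 0.22, 0.04 and 0.26 on the RBFOX2 knockdown arrays between them. Its shift was 0.85 ± 0.14 (adjusted p = 0.0781), or 0.95 and past the threshold without control replicate 3 (adjusted p = 0.0256). In the first comparison, 16 of 74 USP24 probe sets and 9 of 18 USP38 probe sets had an unadjusted p under 0.05, most of them higher (11 and 7).

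In the RBFOX2 knockdown, the probe sets next in order by p were ps3430918 in USP30 and ps3710057 in USP43. The USP30 probe set was at -2.67, -1.98 and -2.12 on the RBFOX2 knockdown arrays, against -0.53, -0.94 and -1.61 on the control arrays, where control replicate 3 was lowest. The shift of -1.23 ± 0.26 (adjusted p = 0.405, limma) was -1.52 and passed without control replicate 3 (adjusted p = 0.0368). It was at -1.84, -2.01 and -2.02 on the arrays labelled CPSF3 knockdown, also below all controls. The USP43 probe set shifted by -0.46 ± 0.11 (adjusted p = 0.433).

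Between the targeting hairpin groups the smallest p belonged to ps2599479 in USP37, the gene whose level differed most. Its log2 signal was 9.24, 9.25 and 9.37 on the arrays labelled CPSF3 knockdown, against 9.27, 8.92 and 9.19 on the RBFOX2 knockdown arrays. This probe set thus differed less than its gene did, which gave a relative shift of -0.86 ± 0.22. The others were ps3402925 in USP5, which takes free ubiquitin chains apart (0.48 ± 0.13), and again ps2745521 in USP38 (0.46 ± 0.14). The adjusted p was 1 for each.

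**Figure D4:**
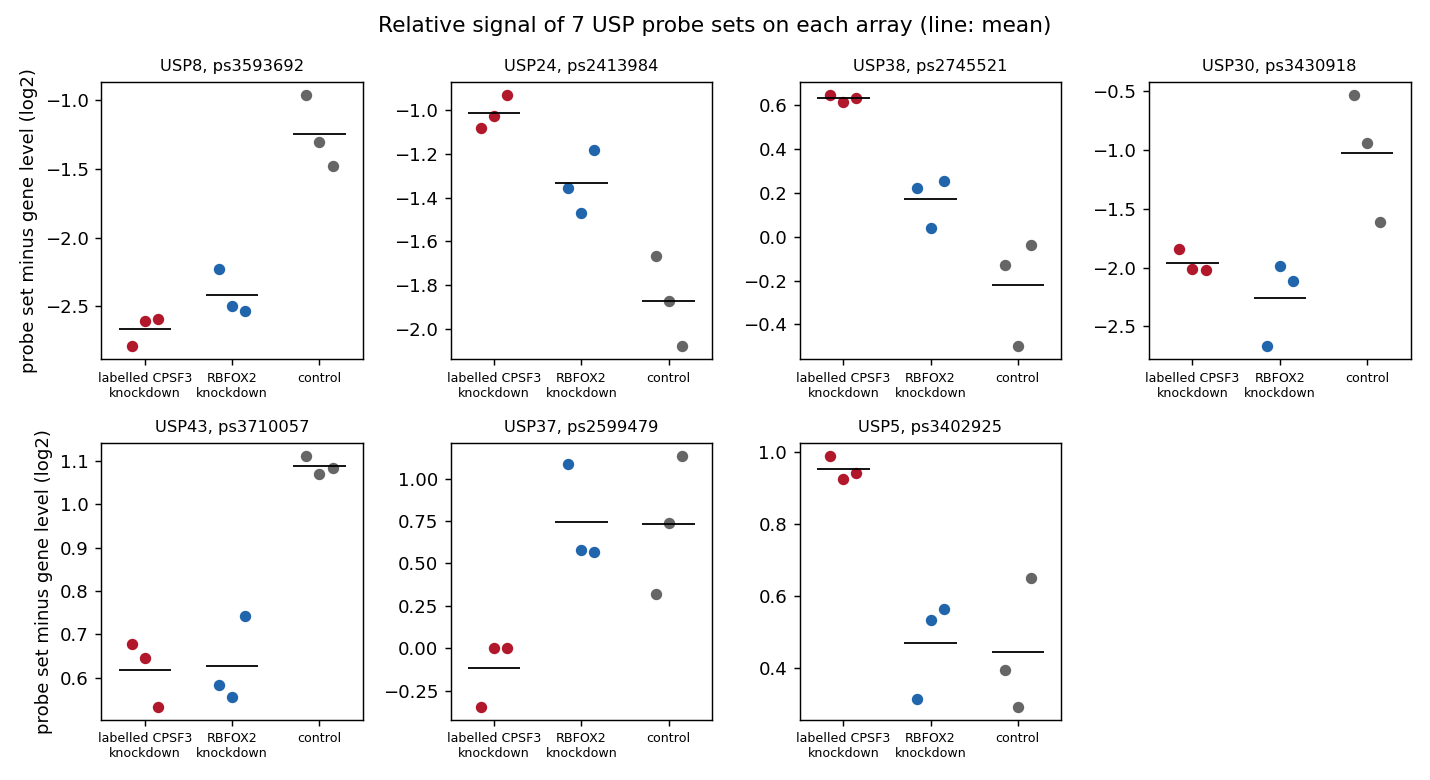
Probe set signal minus gene level (log2, vertical axis) on each array for the 7 USP probe sets that are among the 3 with the smallest p in any 1 of the 3 comparisons; points are arrays and lines are group means (n = 3). In USP8 the 6 arrays of the targeting hairpins lie between -2.79 and -2.23 and the controls between -1.48 and -0.96.

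Other genes of the ubiquitin system gave the setting for these values. Of 89 measured genes on 9 lists, 13 rose and 3 fell on the arrays labelled CPSF3 knockdown (17.98%, with 14.4% of all genes called), and their median change was 0.13. The count of 16 was 9 without CPSF3 replicate 1 or control replicate 2, and 24 without control replicate 3. BRCC3, a metalloprotease deubiquitinase of BRCA1 complexes, had the largest rise. It was at 10.44, 10.33 and 10.27 on these arrays, against 8.68, 8.55 and 9.54 on the control arrays (1.42 ± 0.21, adjusted p = 0.00177, limma), and control replicate 3 stood above the other controls. STAMBPL1, also of the 11 JAMM-type genes, rose by 0.55 ± 0.15. Of 15 OTU-type deubiquitinases OTUD4 rose, by 0.58 ± 0.14, while none of 3 UCH-type, 7 Josephin, MINDY and ZUP1, or 3 USP-fold genes without a USP symbol was called. Among 10 partner proteins of USP enzymes, OTUD4 and G3BP1, a stress granule protein known as a partner of USP10, rose (0.97 ± 0.14 for G3BP1, adjusted p = 0.00189).

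Of 27 measured E2 enzymes 3 rose and 3 fell, with 14.4% of all genes called. UBE2J1, which serves degradation at the endoplasmic reticulum, rose by 0.97 ± 0.19 and UBE2K by 0.68 ± 0.21. UBE2C and UBE2S, the pair that works with the anaphase-promoting complex, fell by 1.36 and 0.72 on the log2 scale (SE 0.21 and 0.15). UBE2C was at 9.87, 9.75 and 9.67 on the arrays labelled CPSF3 knockdown, against 11.34, 11.38 and 10.65 on the control arrays. In the RBFOX2 knockdown UBE2C and UBE2S differed from control by -1.07 ± 0.21 and -0.59 ± 0.15 (adjusted p = 0.0617 and 0.129, limma). USP37, which opposes the same complex, differed there by -0.15 ± 0.14, and a link between these genes was not tested. Of 8 ubiquitin and E1 genes NAE1, UBA3 and SAE1 rose (0.91 ± 0.17, 0.68 ± 0.20 and 0.47 ± 0.14), which activate the ubiquitin-like proteins NEDD8 and SUMO. SAE1 was not called with only the largest run of probe set numbers per gene. Of 6 measured SENP family proteases SENP6 and SENP1, which act on SUMO, and SENP8, which acts on NEDD8, rose, SENP6 by 1.02 ± 0.20. None of the 89 genes was called in the RBFOX2 knockdown by limma, where 0.173% of all genes were, and 14 were called without control replicate 3. Some uncalled genes, picked for their size, had wide differences there: BRCC3 differed by 0.85 ± 0.21, NAE1 by 0.66 ± 0.17 and STAMBPL1 by 0.56 ± 0.15 (adjusted p = 0.116, 0.129 and 0.146, limma). In each of these, control replicate 3 stood above the other controls, as in NAE1 with 10.24, 10.12 and 10.81. Of the genes called in the first comparison, OTUD4 and UBE2F had the opposite sign in the RBFOX2 knockdown (-0.17 ± 0.14 and 0.01 ± 0.14). Between the targeting hairpin groups OTUD4 was called, 0.74 ± 0.14 higher on the arrays labelled CPSF3 knockdown (adjusted p = 0.0391, limma). That call was lost without any 1 array labelled CPSF3 knockdown, without RBFOX2 replicate 1 or 2, without control replicate 1, with no filter, with the upper quartile filter, with the replicate block, and with only the largest run of probe set numbers.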

How the data were processed

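RNA was measured on 9 Affymetrix Human Exon 1.0 ST arrays, 3 per group, grouped by the hairpin in the labels. The deposited values are log2 signals per probe set, which the authors made by RMA with Affymetrix Power Tools and hg18, per the submitters' processing notes. Probe sets were named through the platform annotation, with symbols updated through RefSeq (16426 current, 2950 updated, 121 kept as given), and the 14898 probe sets with several genes were left out.

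Dim probe sets, with a mean over the 9 arrays below 6.97 (the median over the whole array), were left out. Gene levels are medians of at least 3 kept probe sets, and relative signals are probe set minus gene level in genes with at least 5. R 4.3.3 with limma 3.58.1 fitted 1 model of 3 groups with no block, and p-values were adjusted over all genes or probe sets by Benjamini-Hochberg at 0.05, 2-sided. The scripts were tested on simulated data. Array signal has no read depth, and 3 arrays per group limit the precision. Promoters came from RefSeq (GRCh38.p14), and 36 USP genes matched.

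The members, gene lists and tests were chosen with earlier results of these data known. Genes were named if called, with USP1, USP7, USP8, USP9X, USP14, USP22, USP30, USP39 and USP49 always given. Where no USP gene was called the 2 with the smallest p were named, as were the 3 probe sets with the smallest p in each comparison and up to 2 called genes in each direction per list. A further clause, the 3 highest and 3 lowest levels, was not used, since signals of different probe sets are not comparable. USP10 is not analysed here.

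The alternatives were no filter, a filter at the upper quartile, quantile normalization, median centring, a mean gene level, only the 2 groups compared, array weights, the replicate number as a block, leaving out each array, and only the largest run of probe set numbers per gene. For relative signals, probe sets at 0 on every array were also left out, and diffSplice was run.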

Additional observations from a re-analysis of the deposited data

Results flagged for a closer look

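USP37 differed between the 2 targeting hairpin groups in a direct test. Its gene level was 1.02 ± 0.14 (SE) higher on the arrays labelled CPSF3 knockdown than on the RBFOX2 knockdown arrays (log2, adjusted p = 0.00441, limma, n = 3 each). Against control the change was 0.87 ± 0.14 on the arrays labelled CPSF3 knockdown and -0.15 ± 0.14 in the RBFOX2 knockdown. The CPSF3 gene differed on the arrays that carry its name by -0.09 ± 0.16 from control and by -0.34 ± 0.16 from the RBFOX2 knockdown arrays. Neither passed (adjusted p = 0.752 and 0.373, limma), so the direction rests on the label.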

How the results depend on the processing

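Of the alternatives, those for the list counts and the targeted genes, and the use of only the largest run of probe set numbers per gene, were chosen after seeing the data. The last left 4 of the 5 USP genes called, without USP8 (0.34, adjusted p = 0.0741), and 0 list genes between the targeting hairpin groups. The 5 USP genes called on the arrays labelled CPSF3 knockdown against control became 2 with no filter (1 of the 5 among them), 8 with the upper quartile filter, 15 with a mean gene level and 13 with array weights, and 2 to 11 when single arrays were left out. The 0 USP genes called in the RBFOX2 knockdown became 2 with array weights, and 0 to 1 without single arrays. The 1 gene between the targeting hairpin groups became 0 with no filter, 2 with a mean gene level and 2 with array weights, and stayed at 1 without any single array. Relative signals, with 0 calls, gave 4 with a mean gene level, 8 with array weights, 1 without probe sets at 0 on every array and 17 with diffSplice on the arrays labelled CPSF3 knockdown (0 to 19 without single arrays). In the RBFOX2 knockdown they gave 7 with diffSplice (0 to 4 without single arrays). The list count of 16 became 25 with a mean gene level and 27 with array weights (9 to 24 without single arrays). In the RBFOX2 knockdown it was 15 with array weights (0 to 14). Between the targeting hairpin groups it was 0 with no filter or the upper quartile filter and 4 with array weights (0 to 1). RBFOX2 itself passed at -0.67 with the upper quartile filter, -0.56 with a mean gene level and -0.69 with array weights (-0.66 to -0.52 without single arrays), and the CPSF3 gene ranged from -0.20 to 0.07. The causes were not tested.

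With the replicate number as a block, 6 USP genes were called on the arrays labelled CPSF3 knockdown, 1 in the RBFOX2 knockdown (USP44, adjusted p = 0.0412) and 1 between the targeting hairpin groups, list counts were 19, 2 and 0, and RBFOX2 passed at -0.58 (adjusted p = 0.0451). Same-numbered arrays shared deviations in 3 of 9 pairs (r over 0.1, range -0.14 to 0.33, other pairs -0.45 to 0.35). The labels give these arrays only a common number. With 3 arrays per group, such correlations cannot decide whether they were handled together.

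Changes near 0 turned sign. On the arrays labelled CPSF3 knockdown USP39 was -0.0012 after quantile normalization, -0.19 with array weights and -0.078 to 0.16 without single arrays (below 0 without CPSF3 replicate 1, control replicate 2 or control replicate 3). The CPSF3 gene was above 0, at 0.071, without control replicate 3. In the RBFOX2 knockdown, USP8 was -0.020 and USP14 0.039 with no filter, and USP30 was 0.041 with array weights. Without single arrays USP14 lay between -0.20 and 0.086, USP30 between -0.081 and 0.063, USP9X between -0.0075 and 0.25, and USP39 between -0.15 and 0.061. Another background correction was not run, since the values are RMA summaries.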
